A study of Mus musculus with 18 samples.

Results

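The genes carried by the mitochondrial chromosome were followed through single mouse oocytes of 2 meiotic stages, 2 ages and 1 dietary treatment. They were taken as every gene on chromosome M of the GENCODE vM21 annotation (GRCm38), which names them with the prefix mt-. This gave 37 of the 47069 genes in each deposited table, made up of 13 mRNAs, 2 rRNAs and 22 tRNAs, by a rule on position that uses no expression value, although the gene set was chosen with earlier results of these data known. All 37 had the same length in the tables as in the annotation.

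RNA from the soluble lysate of single oocytes was sequenced after the nucleus had been spun down. At the germinal vesicle (GV) stage the oocyte is immature and still has its nucleus, whereas at metaphase II (MII) it has matured into an egg. All came from C57BL/6JAusb mice. Young controls were 4 weeks old and drank plain water, aged controls were 12 months old and drank plain water, and aged NMN mice were 12 months old and drank water with 2 g/L NMN (nicotinamide mononucleotide, from which cells make the coenzyme NAD) for 4 weeks. Of 18 libraries, 2 GV young controls held identical values and were counted once, and 1 GV aged control with 5009 counts was left out. The 16 that remained comprised 7 GV oocytes (2 from young control mice, 2 from aged control mice and 3 from aged NMN mice) and 9 MII oocytes (3 of each kind).

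The 16 libraries held 2756181 to 5586894 counts each, so 3 counts stood for 0.537 to 1.09 CPM, that is, counts scaled to a library of 1000000. Some titles name a batch 2, and libraries whose titles do not were taken as batch 1. The exception was MII aged NMN 2, whose title ends in batch 2 but which was taken as the second oocyte of batch 1. The title of MII aged NMN 1 ends in batch 1. Values by batch rest on that choice. Values are listed below in the order oocyte 1, oocyte 2 and oocyte 2-1, of which 2-1 belonged to batch 2. GV young controls are listed as oocytes 1 and 2-2, and GV aged controls as oocytes 1 and 2-1. GV young control 1 is the library that was deposited under titles of both batches, and it is counted in batch 1. The labels name no animals, so oocytes of a group may share a mouse, and no test between groups was made. All SDs describe the spread between oocytes. Of 10 oocyte markers, the growth factor genes Gdf9 and Bmp15 had counts in every oocyte, at no less than 180 and 129 CPM, and Dazl, which encodes a germ cell RNA-binding protein, had no less than 146 CPM. All 10 had counts in 14 oocytes, with a summed level of 4702 to 26313 CPM. In MII aged NMN 1 and 2, 6 and 7 of the 10 had counts, with sums of 1454 and 2294 CPM, and Zp1, Zp3, Ooep, Zar1 and Mos each lacked a count in at least 1 of the pair. The summed level of 12 cumulus and granulosa cell markers ran from 0 to 287 CPM. It was 287 CPM in MII young control 2-1, 131 CPM in MII young control 1 and at most 80.5 CPM elsewhere.

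The mitochondrial chromosome is a compact circle in which genes lie end to end on both strands. Each strand is transcribed as a long precursor, from which the tRNAs are cut out and so release the mRNAs and rRNAs between them. The mRNAs encode core subunits of the respiratory chain and the ATP synthase, the rRNAs build the mitochondrial ribosome, and the remaining subunits are made from nuclear genes. An oocyte holds a very large stock of mitochondria, and passes them to the embryo. Copies of mitochondrial sequence also lie in nuclear chromosomes as pseudogenes, and reads from either source can be hard to tell apart.

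Of the nuclear pseudogenes in the annotation, 11 matched a mitochondrial gene at 95% identity or more over 200 bases or more, and 5 of them were identical over the whole match. 7 of the 11 lay side by side within 4663 bases of chromosome 1 (chr1:24611535-24616197, GRCm38, minus strand), 3 on chromosome 2 and 1 on chromosome 13. The stretches below show how little separates the mitochondrial genes from the chromosome 1 copies. They are given 5′ to 3′ along the gene from the GENCODE vM21 transcripts. For mt-Co3, which encodes a cytochrome c oxidase subunit, and mt-Nd4l, which encodes a subunit of NADH dehydrogenase, capitals mark the bases at the 3′ end that the copy's model does not reach. For mt-Nd3, another NADH dehydrogenase subunit, and mt-Co1, the catalytic subunit of cytochrome c oxidase, capitals mark the single base that differs.
mt-Co3 (chrM:9351-9390, plus strand): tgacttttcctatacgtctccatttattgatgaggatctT
Gm28437 (chr1:24613189-24613227, minus strand): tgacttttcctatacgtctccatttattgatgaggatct
mt-Nd4l (chrM:10134-10173, plus strand): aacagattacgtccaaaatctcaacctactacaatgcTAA
Gm10222 (chr1:24612407-24612443, minus strand): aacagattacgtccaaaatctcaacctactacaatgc
mt-Nd3 (chrM:9459-9481, plus strand): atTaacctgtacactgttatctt
Gm28438 (chr1:24613097-24613119, minus strand): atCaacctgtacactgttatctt
mt-Co1 (chrM:6390-6413, plus strand): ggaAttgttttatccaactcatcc
Gm29216 (chr1:24616165-24616188, minus strand): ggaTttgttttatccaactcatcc

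The mt-Co3 copy was identical over 783 bases, and mt-Co3 ran 1 base further. The mt-Nd4l copy was identical over 294 bases, and mt-Nd4l ran 3 bases further. Counted from the gene's 5′ end, mt-Nd3 and Gm28438 differed by T3C in 345 bases, and mt-Co1 and Gm29216 by A1066T in 483 bases. The copies of mt-Atp6 (Gm10925, 678 bases), mt-Co2 (Gm28661, 681 bases) and mt-Nd4 (Gm28439, 876 bases) had no difference over their match.

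The deposited counts were divided between these near-identical pairs in ways that differed from gene to gene. Of the counts listed under mt-Co3 or Gm28437, 83.7 to 100.00% were listed under the pseudogene, with a median of 90.3%. In MII aged control oocytes 1 and 2, mt-Co3 had 0.07 and 0.17 expected counts and Gm28437 had 15456.93 and 11047.83. For mt-Nd4l the pseudogene took 93.0 to 100% of the pair. All 7 GV libraries listed mt-Nd4l at 0 while Gm10222 held 80 to 358 counts, and in MII oocytes mt-Nd4l had 0 to 64.3 counts. The labelled gene was therefore the minor partner of both pairs in every oocyte.

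For mt-Nd3 the pseudogene took 15.7 to 100% of the pair, with a median of 57.2%, and the 100% was GV aged NMN 2-1, where mt-Nd3 had no count. For mt-Co1 it took 10.9 to 45.9%, although Gm29216 covers less than the whole gene. For mt-Atp6 it took 0.943 to 1.62% in 6 of the 16 oocytes, 0.0010% in MII young control 2, 0% in MII young control 2-1, and 17.0 to 31.3% in the other 8. Those 8 were GV young control 1 and 2-2, GV aged control 2-1, GV aged NMN 2-1, MII aged control 2-1 and all of MII aged NMN. For mt-Co2 the pseudogene took 39.5% in MII young control 2-1, 7.71% in MII aged control 2 and at most 0.468% elsewhere. For mt-Nd4, which encodes a proton-pumping subunit of complex I, every count was listed under the mitochondrial gene, although the copy matched 876 of its 1378 bases exactly. The copies together held 4.02 to 17.6% of the mitochondrial and copy counts in the 10 libraries of batch 1, with a median of 9.39%. In the 6 of batch 2 they held 6.49 to 22.2%, with a median of 19.2%. The 17.6% was GV young control 1, deposited under titles of both batches, and the other libraries of batch 1 held at most 11.9%. Levels of mt-Co3, mt-Nd4l, mt-Nd3, mt-Co1 and mt-Atp6 are therefore given as deposited and, where stated, with the copy's counts added to the gene.

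**Figure D1:**
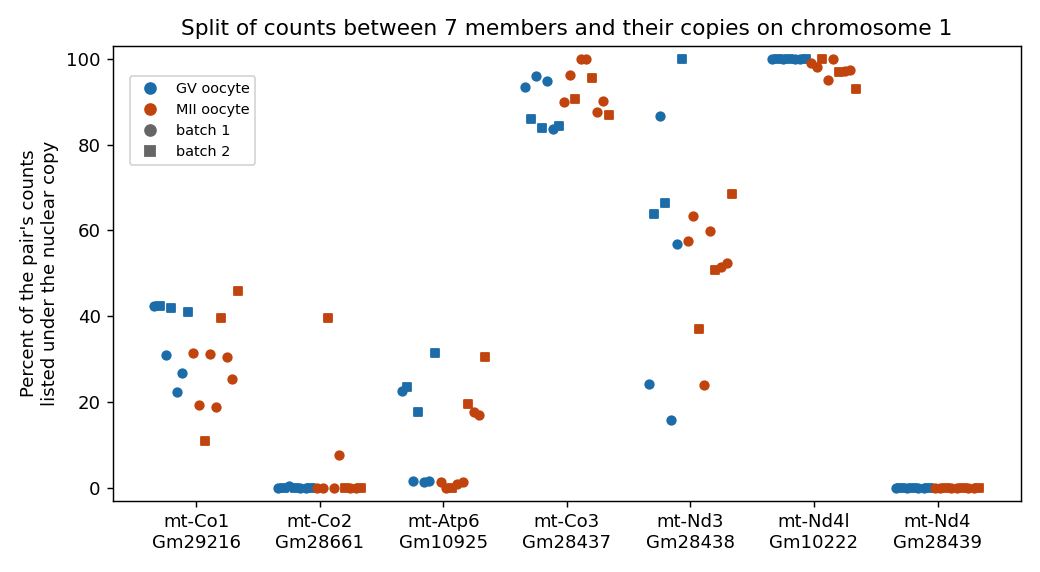
Percent of the counts of each mitochondrial gene and its chromosome 1 copy that were listed under the copy (vertical axis), for 7 pairs in 16 oocytes, with 1 point per oocyte, colour for stage and shape for batch. The mt-Nd4l and mt-Co3 pairs lie above 83%, mt-Nd4 lies at 0% and mt-Atp6 splits into oocytes at or under 1.62% and oocytes at or above 17.0%.

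The share of a library held by the mitochondrial genes set the scale for everything else. With copies added, it was 4.55 and 9.64% in GV young control, 3.08 and 3.42% in GV aged control, and 5.10, 3.14 and 4.62% in GV aged NMN oocytes. In MII oocytes it was 25.6, 5.42 and 7.00% in young control, 13.1, 10.6 and 11.7% in aged control, and 47.9, 37.7 and 7.87% in aged NMN oocytes. All 3 MII aged controls lay above every GV oocyte. The other MII groups each had oocytes within the range of the GV young controls. The group means were 7.10 ± 3.60% (SD, n = 2), 3.25 ± 0.242% (n = 2) and 4.29 ± 1.02% (n = 3) in GV young control, aged control and aged NMN, and 12.7 ± 11.2%, 11.8 ± 1.25% and 31.2 ± 20.8% (n = 3 each) in the MII groups. As deposited, without the copies, MII aged NMN stood at 27.5 ± 19.1%. Expressed per count from all other genes, mitochondrial counts were 0.754 and 0.498 in MII aged NMN 1 and 2 and 0.0659 in MII aged NMN 2-1. The first 2 of these also had the fewest nuclear genes with a count, 6369 and 5613, against 7689 to 13739 in the other 14 oocytes, and the lowest summed level of oocyte markers. The part of either in the result was not tested.

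**Figure D2:**
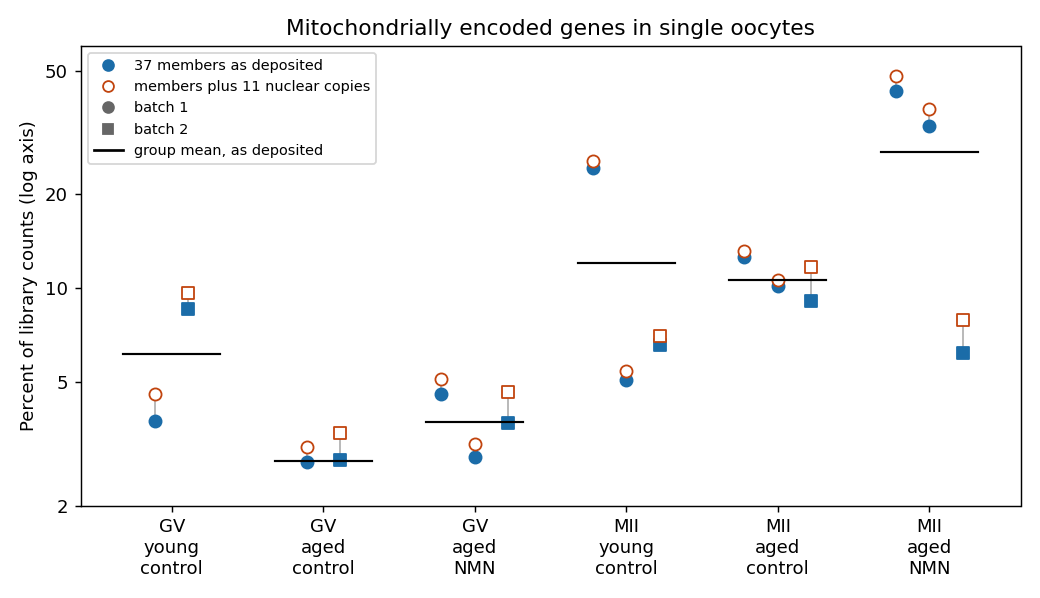
Percent of a library's counts held by the 37 mitochondrially encoded genes (vertical log axis) in each of 16 oocytes by group, as deposited (filled) and with 11 nuclear copies added (open), with shape for batch and a bar at the group mean as deposited. MII aged NMN oocytes 1 and 2 stand highest at 43.0 and 33.2% as deposited, and the GV aged controls lie lowest at 2.76 and 2.80%.

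Within the mitochondrial total, 2 mRNAs held most counts. mt-Cytb encodes cytochrome b, the only mitochondrially encoded subunit of complex III, and mt-Atp6 encodes the proton channel subunit of the ATP synthase. As deposited, mt-Cytb came first in 14 of 16 oocytes and mt-Atp6 in the other 2. With its copy, mt-Atp6 was also 1.009 times mt-Cytb in GV aged control 2-1. Together they held 54.0 to 86.4% of mitochondrial counts as deposited. Per kilobase of annotated length, the median levels of mt-Cytb and mt-Atp6 as deposited were 22005 and 21480 CPM per kilobase over the 16 oocytes. Next as deposited came mt-Co2 with 3660, mt-Nd2 with 2330 and mt-Nd1 with 2268. The rRNAs mt-Rnr2 and mt-Rnr1 had 1686 and 737 CPM per kilobase. The lowest mRNAs per kilobase as deposited were mt-Nd6 with 289 and mt-Nd3 with 197, apart from mt-Nd4l, which was 0 in 9 of 16 oocytes. With copies added, mt-Co3 held a median of 7.07% of mitochondrial counts against 3.51% for mt-Co2. The shorter mt-Nd3 then held 0.187% against 0.156% for mt-Nd6. The ranks of mt-Co3 and mt-Nd3 therefore depend on how counts were divided with their copies.

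mt-Cytb held 33.8 and 62.4% of mitochondrial counts in GV young control, 53.4 and 32.4% in GV aged control, and 49.0, 52.0 and 38.0% in GV aged NMN oocytes. It held 62.7, 47.9 and 46.1% in MII young control, 63.9, 60.6 and 28.6% in MII aged control, and 57.8, 52.7 and 30.9% in MII aged NMN oocytes. The lowest oocytes, at 28.6 to 38.0%, were GV young control 1, the 2-1 oocytes of both aged GV groups and the 2-1 oocytes of both aged MII groups, and they were found at both stages. mt-Atp6 with its copy held 20.2 to 27.9% in 14 oocytes and 40.1 and 38.2% in MII aged control 2-1 and MII aged NMN 2-1. In those 2 oocytes mt-Atp6 with its copy exceeded mt-Cytb 1.80-fold and 1.57-fold, against a median ratio of 0.515 over all 16. The ratio was 1.009 in GV aged control 2-1 and 0.346 to 0.898 in the other 13.

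mt-Atp8, the gene of a small ATP synthase subunit, overlaps the start of mt-Atp6 on the same strand by 43 bases, so reads there can belong to either gene. Capitals mark the shared bases in the end of mt-Atp8 and the start of mt-Atp6.
mt-Atp8 (chrM:7910-7969, plus strand): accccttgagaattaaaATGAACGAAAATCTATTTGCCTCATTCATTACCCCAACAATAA
mt-Atp6 (chrM:7927-7986, plus strand): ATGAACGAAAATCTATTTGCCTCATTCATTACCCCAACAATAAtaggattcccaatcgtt
mt-Atp8 held 0.239 and 0.227% of mitochondrial counts in GV young control, 0.279 and 0.237% in GV aged control and 0.334, 0.316 and 0.216% in GV aged NMN oocytes. It held 0.432, 0.524 and 0.342% in MII young control, 0.699, 0.254 and 0.342% in MII aged control and 1.501, 1.05 and 0.261% in MII aged NMN oocytes. MII aged NMN 1 and 2 stood above the other 14. The counts of mt-Atp6 per count of mt-Atp8 were 17.0 and 23.9 in these 2, and 31.3 to 130 in the rest.

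The catalytic subunits of cytochrome c oxidase, encoded by mt-Co1 and mt-Co2, and the third core subunit, encoded by mt-Co3, held medians of 5.15, 3.51 and 7.07% of mitochondrial counts over the 16 oocytes once copies were added. mt-Co1 with its copy held 9.67 and 4.96% in GV young control, 7.13 and 10.01% in GV aged control and 7.77, 5.29 and 8.14% in GV aged NMN oocytes. It held 3.26, 5.15 and 9.91% in MII young control, 2.92, 2.71 and 4.86% in MII aged control and 3.69, 5.16 and 4.90% in MII aged NMN oocytes. All but 1 of the MII oocytes were at or below 5.16%, and all but 2 of the GV oocytes lay above 7%.
mt-Co2 with its copy held 8.41 and 3.25% in GV young control, 2.95 and 5.79% in GV aged control and 3.59, 3.28 and 5.43% in GV aged NMN oocytes. In MII oocytes it held 1.91, 3.80 and 3.43% in young control, 1.91, 2.17 and 8.11% in aged control and 2.93, 4.34 and 8.30% in aged NMN. The highest 3 were GV young control 1 and the 2-1 oocytes of the 2 aged MII groups, which were among the 5 oocytes with the lowest mt-Cytb share.
mt-Co3 with its copy held 9.02 and 5.01% in GV young control, 7.94 and 10.7% in GV aged control and 8.40, 7.85 and 9.83% in GV aged NMN oocytes. In MII oocytes it held 3.68, 4.87 and 3.79% in young control, 2.69, 3.05 and 12.8% in aged control and 4.55, 6.28 and 8.43% in aged NMN. Adding the copy narrowed the SD of its log2 share over the 16 oocytes from 5.15 to 0.69.

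The 7 complex I mRNAs together, with copies, held 5.56 to 17.7% of mitochondrial counts. mt-Nd1, which encodes a membrane subunit near the quinone site, held 2.65 and 2.40% in GV young control, 3.76 and 3.49% in GV aged control and 4.83, 4.29 and 2.66% in GV aged NMN oocytes. In MII oocytes it held 1.98, 5.72 and 6.90% in young control, 1.79, 2.42 and 2.34% in aged control and 1.76, 2.66 and 1.51% in aged NMN. MII young control 2 and 2-1 were the highest of the 16. mt-Nd4 was also highest in MII young control 2-1, with 5.27% against 1.15 to 2.80% in the other 15.
mt-Nd2, a proton-pumping subunit, held 8.35 and 3.24% in GV young control, 2.096 and 5.25% in GV aged control, 2.07, 2.25 and 4.67% in GV aged NMN, 2.18, 3.88 and 3.84% in MII young control, 1.84, 2.06 and 4.66% in MII aged control, and 1.53, 1.17 and 6.91% in MII aged NMN oocytes. In each of the 4 aged groups the 2-1 oocyte was the highest. mt-Nd5, another proton-pumping subunit, held 3.67 and 1.62% in GV young control, 1.36 and 1.44% in GV aged control, 1.32, 1.26 and 2.16% in GV aged NMN, 0.803, 1.76 and 1.91% in MII young control, 0.804, 0.645 and 0.839% in MII aged control, and 0.483, 0.568 and 1.23% in MII aged NMN oocytes.
The small subunits were scarce. mt-Nd3 with its copy held 0.0858 to 0.561% and mt-Nd4l with its copy 0.0400 to 0.545%. The highest mt-Nd3 was in MII aged NMN 2 and the highest mt-Nd4l in MII young control 2-1.

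mt-Nd6 is the only mRNA read from the minus strand, and its last 14 bases overlap the end of mt-Nd5 on the plus strand. Whether the counting used strand is not given in the sources used here, so its counts cannot be told from antisense transcripts of the plus-strand genes. Capitals mark the shared bases, each sequence being given along its own strand.
mt-Nd5 (chrM:13526-13565, plus strand): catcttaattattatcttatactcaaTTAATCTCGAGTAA
mt-Nd6 (chrM:13552-13591, minus strand): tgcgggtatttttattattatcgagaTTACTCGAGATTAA
mt-Nd6 held 0.466 and 0.294% of mitochondrial counts in GV young control, 0.164 and 0.385% in GV aged control and 0.141, 0.129 and 0.420% in GV aged NMN oocytes. In MII oocytes it held 0.116, 0.274 and 0.222% in young control, 0.137, 0.0693 and 0.212% in aged control and 0.0759, 0.00798 and 0.257% in aged NMN. MII aged NMN 2 stood apart, with 124 counts (exact 95% Poisson interval 103.1 to 147.8, counting error only) in a library of 1554677 mitochondrial counts. Its mt-Nd6 counts were 0.0140 per mt-Nd5 count, against 0.103 to 0.268 in the other 15, and 7.30-fold below the lowest of them. MII aged NMN 1, which resembled it in mitochondrial share, had 0.157. Over all 16 oocytes with copies added, mt-Nd6 had the widest spread of any mRNA, with an SD of the log2 share of 1.38. That SD includes MII aged NMN 2, and its rank without that oocyte was not computed. mt-Nd4l came next, with 0.91, and mt-Atp6 was the narrowest, with 0.29.

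The rRNAs held 1.72 to 10.9% of mitochondrial counts. The share was 10.1 and 2.27% in GV young control, 3.73 and 10.9% in GV aged control and 4.01, 3.74 and 10.8% in GV aged NMN oocytes. In MII oocytes it was 1.84, 3.57 and 1.72% in young control, 3.49, 2.59 and 4.53% in aged control and 2.41, 3.86 and 7.71% in aged NMN. The highest 4 were GV young control 1 and the 2-1 oocytes of GV aged control, GV aged NMN and MII aged NMN. GV young control 1, which is the library deposited under titles of both batches, thus stood beside oocytes of batch 2 here and in the mt-Cytb share. mt-Rnr2, the large subunit rRNA, had 1.54 to 6.97 counts per count of mt-Rnr1, the small subunit rRNA.

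**Figure D3:**
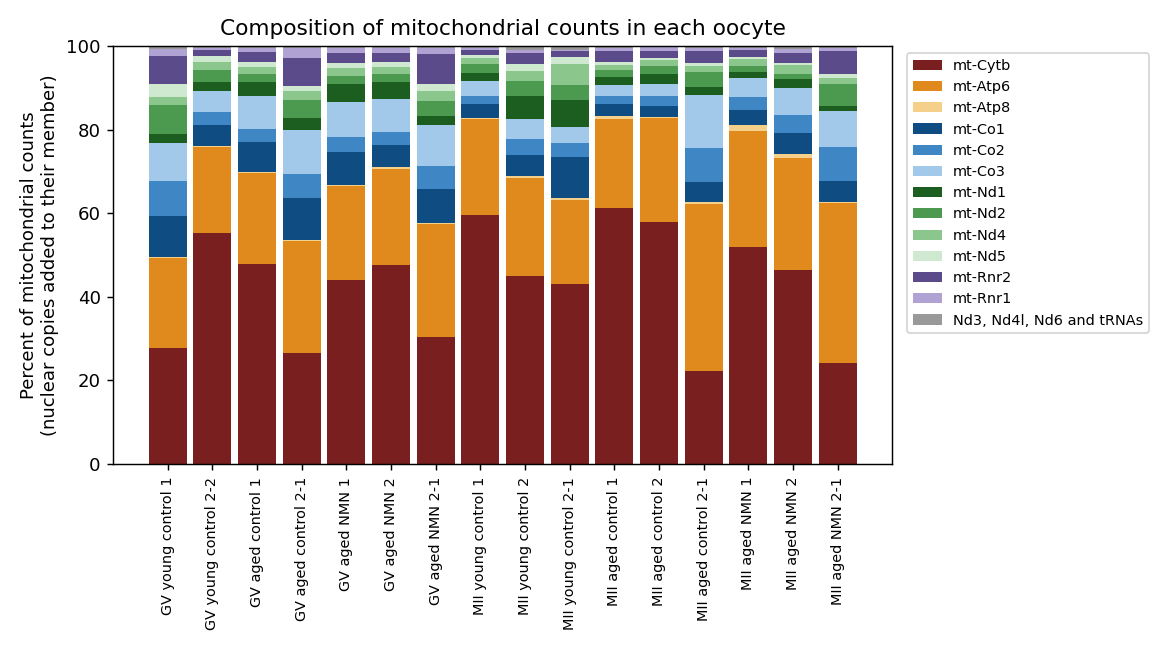
Percent of mitochondrial counts held by each gene (stacked bars) in each of 16 oocytes, with nuclear copies added to their gene. mt-Cytb and mt-Atp6 form the largest bands, and the rRNA band is widest, at 8.35 to 8.91%, in GV young control 1, GV aged control 2-1 and GV aged NMN 2-1.

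The tRNAs, of 59 to 75 bases, were nearly absent. Over the 16 oocytes the 22 tRNAs had 588 counts in all, of which 464 (78.9%) fell on the 8 tRNAs of the minus strand. 18 tRNAs had a count in some oocyte, and mt-Tf, mt-Ty, mt-Ts2 and mt-Tr had none. All 6 libraries of batch 2 had no tRNA count, as had GV young control 1, which carries the titles of both batches, and the other 9 of batch 1 had 4 to 254. Only mt-Ts1, a serine tRNA whose end overlaps mt-Co1 on the other strand by 3 bases, reached 10 CPM in the mean of a group. Its sequence is shown because it held 236 of the 588 counts, with the overlap in capitals.
mt-Ts1 (chrM:6870-6938, minus strand): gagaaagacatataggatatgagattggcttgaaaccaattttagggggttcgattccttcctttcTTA
mt-Ts1 had 133 counts in MII aged NMN 1 and none in MII aged NMN 2-1. With the oocytes of a group pooled, its level was 17.3 CPM in MII aged NMN (exact 95% Poisson interval 14.9 to 19.9). It was 1.13 CPM (0.583 to 1.97) in MII aged control and 1.78 CPM (1.17 to 2.59) in MII young control. These intervals cover counting error only and not the spread between oocytes, so they do not compare the groups. It had no count in GV young and aged controls, with an upper bound of 0.467 and 0.423 CPM. Of these oocytes, only GV aged control 1 had a count of any tRNA. As mt-Ts1 lies antisense to the end of mt-Co1 and the use of strand is not given in the sources used here, its counts cannot be told apart from those of transcripts that run through it.

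The deposited TPM values weighted short genes heavily. TPM divides by an effective length, which is 0 for tRNAs in 15 of 16 tables. In MII aged NMN 1 it was near 1 base for some of them, and 254 tRNA counts became 39312.69 TPM, 3.93% of the library's TPM. mt-Atp8 had an effective length of 3.62 to 35.8 bases, and reached 116150 TPM in the same oocyte against 179422 for mt-Cytb. Levels were therefore compared as CPM scaled with TMM factors (trimmed mean of M-values), which align libraries on the bulk of their genes.

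Age in GV oocytes was described by 2 aged against 2 young controls. Mitochondrial mRNAs were lower in the aged oocytes, with a median log2 ratio of group means (after adding 1 CPM) of -1.33, or -1.17 with copies added, and rRNAs less so, with -0.49 for mt-Rnr1 and -0.79 for mt-Rnr2. Past 2-fold lower were 8 of 13 mRNAs, where 12.2% of all 12161 genes kept by the count filter were, and none was past 2-fold higher, where 31.1% were. The median of all genes was 0.29.
mt-Nd5 was at 1402 and 1424 CPM in young and 344 and 347 CPM in aged oocytes, 4.09-fold lower, and neither group overlapped the other. mt-Nd2 was at 3190 and 2845 CPM in young and 530 and 1265 CPM in aged oocytes, 3.36-fold lower. mt-Nd3 was at 63.3 and 30.8 CPM against 4.56 and 19.2 CPM as deposited, 3.97-fold lower, and at 83.4 and 85.0 CPM against 34.2 and 57.2 CPM with its copy, 1.84-fold lower.
The smallest differences were in mt-Co3, at 274 and 695 CPM against 89.6 and 506 CPM, and in mt-Nd4l, which was at 0 in both groups as deposited. With copies they were 4180 and 4969 CPM against 2243 and 3134 CPM for mt-Co3, and 78.5 and 39.7 CPM against 53.0 and 22.6 CPM for mt-Nd4l. mt-Cytb was at 12912 and 54862 CPM in young and 13500 and 7811 CPM in aged oocytes, so its groups overlapped and its mean rested on GV young control 2-2. No overlap was found for 10 of 13 mRNAs, all lower, against 10.7% of all genes lower and 23.5% higher. The median was -0.98 within batch 1 and -1.26 within batch 2, each with 1 oocyte a group. The young oocyte of batch 1 is GV young control 1, which was deposited under titles of both batches. With it placed in batch 2 the median within batch 2 was -1.17, and batch 1 had no young GV oocyte. Without GV young control 2-2 the median was -0.73, when 5 mRNAs were past 2-fold.

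Age in MII oocytes gave a median of the 13 mRNAs that changed sign with 1 oocyte. It was -0.54, 1 of 13 was past 2-fold lower, where 22.6% of all genes were, and none was past 2-fold higher, where 8.45% were. The count past 2-fold in either direction was 3 to 6 when any 1 oocyte was left out, 7 within batch 1, 5 within batch 2 and 0 with copies added. The median of all genes was -0.27. Without MII young control 1, the oocyte of high mitochondrial share, the median was 0.66. Within batch 1 it was -1.09 and within batch 2 it was 0.78.
mt-Nd1 was at 5614, 2525 and 3770 CPM in young and 1733, 2094 and 2198 CPM in aged oocytes, 1.98-fold lower with no overlap, which 6.16% of all genes also showed. mt-Nd4 was at 4054, 1133 and 2878 CPM against 1112, 1185 and 1824 CPM, with overlap. mt-Co3 was at 1106, 84.2 and 208 CPM against 0, 0 and 695 CPM as deposited, 2.01-fold lower. With its copy it was at 10970.3, 2293 and 2212 CPM against 2720.1, 2763 and 15436 CPM, a log2 ratio of 0.43 in the other direction. The smallest log2 ratios were -0.13 for mt-Atp6 and 0.02 for mt-Nd3, or 0.03 and -0.35 with copies added.

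NMN in GV oocytes was described by 3 treated against 2 aged control oocytes, and the aged controls are the same oocytes as in the comparison of ages. The median of the 13 mRNAs was 0.63, with 12 higher and mt-Nd4l at 0 in all. 1 of 13, mt-Nd3, was past 2-fold higher, where 8.54% of all genes were, and none past 2-fold lower, where 12.3% were. With copies added all 13 were higher, none past 2-fold, with a median of 0.62.
mt-Nd5 was at 649, 357 and 843 CPM with NMN against 344 and 347 CPM in controls, 1.79-fold higher. mt-Atp8 was at 164, 89.8 and 84.2 CPM against 70.5 and 57.2 CPM, 1.76-fold higher. In both genes the groups did not overlap, although GV aged NMN 2 lay just above the controls for mt-Nd5.
mt-Nd3 was at 82.5, 22.5 and 0 CPM against 4.56 and 19.2 CPM as deposited, with overlap, and its ratio of 2.95 was 1.55 with its copy. mt-Nd2 was at 1016, 640 and 1821 CPM against 530 and 1265 CPM, the smallest difference of the 12, with a log2 ratio of 0.37. As deposited, groups did not overlap for 5 of 13 mRNAs (mt-Nd1, mt-Atp8, mt-Atp6, mt-Nd5 and mt-Cytb), all higher, against 5.68% of all genes higher and 8.12% lower. With copies added the number was 4. For mt-Atp6, Gm10925 took 17.6% of the pair in GV aged control 2-1 and 1.62% in GV aged NMN 2. The separation of mt-Atp6 as deposited therefore depends on how counts were divided with its copy. The count of mRNAs past 2-fold was 0 without GV aged NMN 1, 2 without GV aged NMN 2 and 5 without GV aged control 2-1.

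NMN in MII oocytes showed the highest levels of all, in 2 of the 3 treated oocytes. The median of the 13 mRNAs was 1.97, with 12 of 13 past 2-fold higher, where 14.7% of all genes were, and none past 2-fold lower, where 33.1% were. Groups did not overlap for 1 of 13 mRNAs as deposited and for 0 of 13 with copies added, against 1.51% of all genes higher and 11.8% lower. The median of all genes was -0.33, or -0.64 with library totals, and that of the 13 mRNAs was 1.39 with library totals, with 9 past 2-fold, and 0.87 with deposited TPM, with 6 past 2-fold. The summed oocyte markers were at 1454, 2294 and 5489 CPM with NMN against 4702, 12581 and 4742 CPM in aged controls, and the part of that in the result was not tested. Both rRNAs were also past 2-fold higher, with 1.95 for mt-Rnr1 and 1.88 for mt-Rnr2.
mt-Atp8 was at 8399, 5077 and 161 CPM with NMN against 678, 220 and 321 CPM in aged controls. mt-Nd3 with its copy was at 1295, 3069 and 224 CPM against 237, 127 and 268 CPM. mt-Cytb was at 323352, 254312 and 19068 CPM against 62050, 52460 and 26838 CPM. In each of the 3 genes MII aged NMN 1 and 2 stood above all controls and MII aged NMN 2-1 did not.
mt-Co3 was at 3514, 3412 and 874 CPM against 0, 0 and 695 CPM as deposited, an 11.2-fold difference without overlap. With its copy it was at 28349, 34366 and 6616 CPM against 2720.1, 2763 and 15436 CPM, 3.31-fold higher with overlap. mt-Rnr2 was at 10102, 13556 and 4158 CPM against 2673, 1462 and 3428 CPM, without overlap.
The smallest differences were in mt-Nd2, at 8572, 5644 and 4261 CPM against 1789, 1785 and 4372 CPM, and mt-Nd6, at 425, 38.5 and 159 CPM against 133, 60.03 and 199 CPM. The median within batch 1 was 2.61 and within batch 2, with 1 oocyte a group, it was -0.59, when 12 of 13 mRNAs were lower with NMN. The title of MII aged NMN 2 ends in batch 2 alone, where other batch 2 titles add an oocyte number, and that of MII aged NMN 1 ends in batch 1. MII aged NMN 2 was taken here as the second oocyte of batch 1. With the title read literally the median was 2.50 within batch 1 and 1.62 within batch 2.

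**Figure D4:**
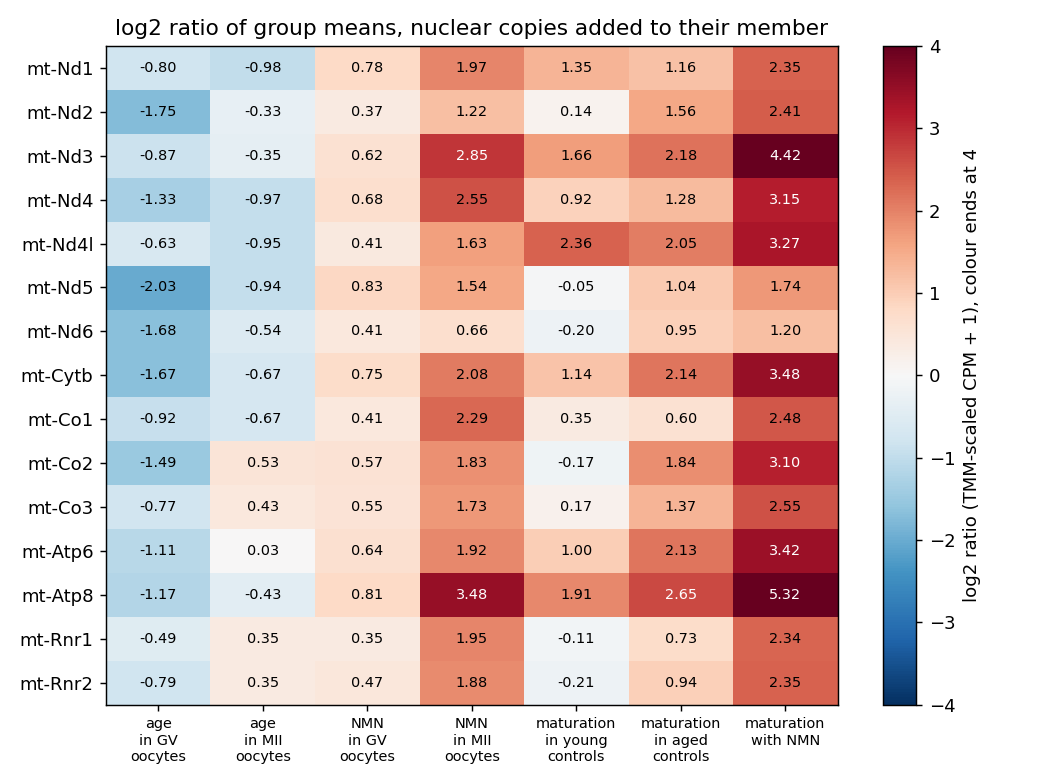
log2 ratio of group means (TMM-scaled CPM after adding 1 CPM, nuclear copies added) for 13 mRNAs and 2 rRNAs (rows) in 7 comparisons (columns), the colour scale ending at 4 either way. Aged GV oocytes are lower throughout, from -2.03 for mt-Nd5 to -0.49 for mt-Rnr1, and MII aged NMN oocytes are higher than GV aged NMN oocytes throughout, up to 5.32 for mt-Atp8.

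Maturation compared MII with GV oocytes of the same condition, using the oocytes already described, so the 3 contrasts share groups with those of age and NMN. In young controls the median of the 13 mRNAs was 0.92. As deposited, 6 of 13 were past 2-fold higher, where 36.3% of all genes were, and 5 with copies added. None was past 2-fold lower, where 25.8% of all genes were. The median of all genes was 0.35. Without MII young control 1 the median of the mRNAs was -0.031, and within batch 2 it was -0.40, so the direction rested on that oocyte.
mt-Nd1 was the only mRNA without overlap as deposited, at 5614, 2525 and 3770 CPM in the MII oocytes and 1013 and 2109 CPM in the GV oocytes, where 17.5% of all genes did not overlap in that direction. As deposited, mt-Atp8 was at 1227, 232 and 187 CPM against 91.4 and 199 CPM, and mt-Atp6 at 67064, 11009 and 11794 CPM against 7732 and 15551 CPM. Gm10925 held 22.6 and 23.6% of the mt-Atp6 pair in the GV oocytes and at most 1.24% in the MII oocytes. With copies, these 2 genes summed to 69132, 11241 and 11981 CPM in MII and 10080 and 20542 CPM in GV oocytes. mt-Nd4l with its copy was at 434, 173 and 318 CPM against 78.5 and 39.7 CPM, 5.22-fold higher without overlap. As deposited it was at 4.18, 3.27 and 0 CPM against 0. All GV counts of this pair were listed under Gm10222, so no fold is given from the deposited values. mt-Nd4l is nevertheless among the 6 mRNAs past 2-fold as deposited. mt-Nd5 and mt-Co3 differed least, with log2 ratios of -0.05 and -0.06.

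In aged controls the median was 1.56, with 10 of 13 past 2-fold higher, where 16.9% of all genes were, and none past 2-fold lower, where 35.9% were. The median of all genes was -0.29. Groups did not overlap for 10 mRNAs, all higher in MII oocytes, against 10.8% of all genes. The median was 1.02 without MII aged control 2-1.
mt-Cytb was at 62050, 52460 and 26838 CPM in the MII oocytes and 13500 and 7811 CPM in the GV oocytes. mt-Atp8 was at 678, 220 and 321 CPM against 70.5 and 57.2 CPM, 6.37-fold higher. mt-Nd3 with its copy was at 237, 127 and 268 CPM against 34.2 and 57.2 CPM, 4.61-fold higher, or 10.2-fold as deposited. The lowest MII oocyte stood above the highest GV oocyte in each of the 3.
mt-Nd4l with its copy was at 177, 117 and 184 CPM against 53.0 and 22.6 CPM, 4.21-fold higher. As deposited, all GV counts of this pair were again listed under Gm10222, and mt-Nd4l is among the 10 past 2-fold. With copies added 11 mRNAs were past 2-fold higher. mt-Co1 differed least among the genes whose copy changed little, at 2028, 1989 and 3541 CPM against 1391 and 1711 CPM, and mt-Co3 had a log2 ratio of -0.36 as deposited and 1.37 with its copy.

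With NMN the median was 3.10, with all 13 past 2-fold higher, where 16.9% of all genes were, and none past 2-fold lower, where 46.7% were. The median of all genes was -0.82. The 2-1 oocytes, compared alone within batch 2, had a median of 0.36 with 5 of 13 past 2-fold. MII aged NMN 1 and 2 are the oocytes with the lowest oocyte marker sums.
mt-Atp8 was at 8399, 5077 and 161 CPM in the MII oocytes and 164, 89.8 and 84.2 CPM in the GV oocytes, so the lowest MII oocyte fell within the GV range. mt-Nd3 with its copy was at 1295, 3069 and 224 CPM against 97.8, 52.1 and 61.9 CPM, 21.7-fold higher without overlap. mt-Nd4l with its copy was at 868, 560 and 59.96 CPM against 81.8, 38.5 and 30.8 CPM, with overlap. As deposited, all GV counts of this pair were again listed under Gm10222. All 13 mRNAs were past 2-fold higher with copies added as well.
mt-Nd5 and mt-Nd6 differed least, at 2699, 2739 and 759 CPM against 649, 357 and 843 CPM, and at 425, 38.5 and 159 CPM against 69.3, 36.6 and 164 CPM. Groups did not overlap for 6 mRNAs, all higher, against 3.68% of all genes.

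The respiratory chain is built from both genomes, and the nuclear side was lower in MII oocytes. The 13 mitochondrial mRNAs together were 0.871 to 3.28 times the summed level of 73 nuclear genes of complexes I, III, IV and V in the 7 GV oocytes. In MII oocytes the ratio was 30.6, 11.3 and 18.9 in young control, 25.6, 22.6 and 10.2 in aged control, and 196, 177 and 5.38 in aged NMN. No MII oocyte overlapped the GV oocytes, and MII aged NMN 2-1 was the lowest of the MII oocytes while its group held the highest 2. The nuclear sum ran from 15758 to 36932 CPM in GV and from 2613 to 10588 CPM in MII oocytes.

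**Figure D5:**
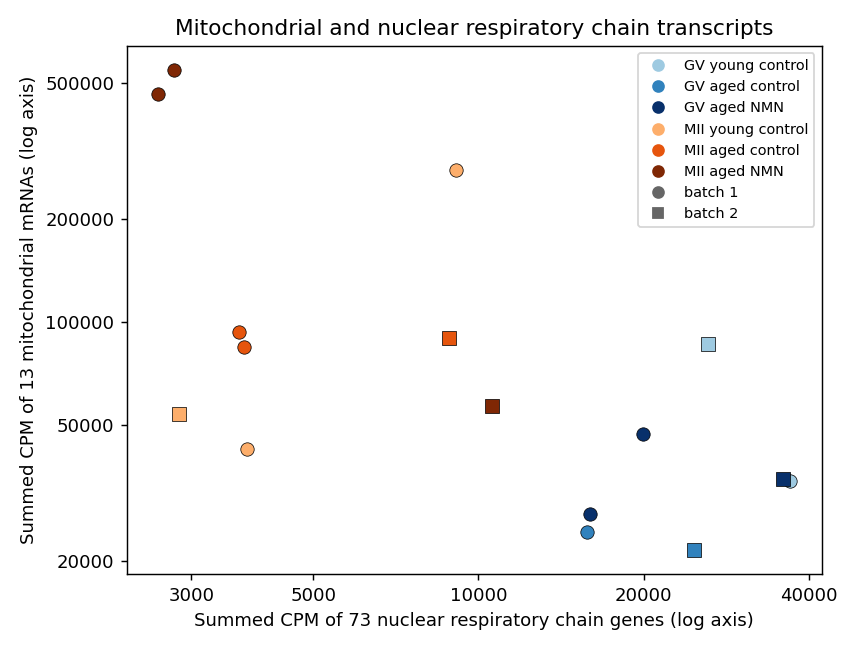
Summed CPM of the 13 mitochondrial mRNAs (vertical log axis) against summed CPM of 73 nuclear respiratory chain genes (horizontal log axis) in 16 oocytes, coloured by group with shape for batch. The 7 GV oocytes lie to the right, at 15758 CPM or more of nuclear transcripts, and the 9 MII oocytes to the left, with MII aged NMN 1 and 2 at the top.

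Between MII and GV oocytes, 33 of 36 nuclear complex I genes were past 2-fold lower in young, 31 in aged control and 33 in NMN oocytes, with medians of -3.60, -3.17 and -3.71. Over all genes 25.8, 35.9 and 46.7% were past 2-fold lower, with medians of 0.35, -0.29 and -0.82. Ndufb7, a peripheral complex I subunit, was at 5.05 ± 3.08 CPM (n = 3) in MII and 494 ± 211 CPM (n = 2) in GV young controls. Of 9 complex III genes, 7, 8 and 9 were past 2-fold lower, of 12 complex IV genes 8, 8 and 9, and of 16 ATP synthase genes 11, 15 and 14. Cox7c of complex IV was at 13.3 ± 13.7 CPM against 1600 ± 276 CPM in young controls, and Atp5j2 of the ATP synthase at 7.93 ± 3.15 CPM against 1225 ± 167 CPM. Uqcrc2, a core protein of complex III, was among the 2 of its list past 2-fold higher in young controls, at 726 ± 186 CPM in the MII oocytes and 22.7 ± 28.1 CPM in the GV oocytes.
With age in GV oocytes the nuclear medians were -0.53, -0.64, -0.48 and -0.47 for complexes I, III, IV and V, against -1.33 for the mitochondrial mRNAs and 0.29 for all genes. With NMN in MII oocytes they were -0.30, -0.66, -0.07 and -0.02, against 1.97. Of 16 ATP synthase genes 7 were higher with NMN and 9 lower, with 3 past 2-fold each way. Past 2-fold higher and lower were 1 and 10 genes of complex I, 0 and 4 of complex III and 3 and 1 of complex IV. Over all genes 14.7% were past 2-fold higher and 33.1% lower, and the median was -0.33. Atp5b, the catalytic subunit of the ATP synthase, was at 349 ± 201 with NMN against 86.4 ± 29.1 CPM. Its groups did not overlap, as for 1.51% of all genes in that direction. With NMN in GV oocytes the medians were 0.27, 0.28, 0.16 and 0.14, against 0.63, and with age in MII oocytes 0.10, -0.20, 0.31 and 0.04, against -0.54.

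Of 16 nuclear genes for transcription of the mitochondrial chromosome, 15 were kept by the filter. With age in GV oocytes 7 of 15 were past 2-fold higher and 2 lower, with a median of 0.70, where 31.1% of all genes were higher and 12.2% lower, with a median of 0.29. Tfam, which packages mitochondrial DNA and activates its promoters, was at 25.8 ± 17.7 CPM in aged and 3.91 ± 5.53 CPM in young oocytes, and Tfb1m, which methylates the small rRNA, at 27.8 ± 7.27 against 5.81 ± 5.26 CPM. Both had no overlap, as had 23.5% of all genes in that direction.
Between stages, 7, 9 and 10 of the 15 were past 2-fold lower in MII oocytes of young controls, aged controls and NMN mice, against 25.8, 35.9 and 46.7% of all genes. Past 2-fold higher were 5, 3 and 3, against 36.3, 16.9 and 16.9% of all genes. The medians of the list were -0.24, -1.43 and -2.42. Polrmt, the mitochondrial RNA polymerase, was at 0.333 ± 0.578 CPM in MII and 29.9 ± 26.4 CPM in GV aged controls. It had no count in MII aged NMN against 37.02 ± 27.6 CPM in GV aged NMN oocytes. Fewer genes of the list had any count there, with 9, 5 and 8 of 16 in MII aged NMN against 16, 15 and 13 in GV aged NMN oocytes. With NMN in MII oocytes 3 were past 2-fold higher and 6 lower, with a median of 0.26, where 14.7% of all genes were higher and 33.1% lower.
Of 32 genes for processing and stability of mitochondrial RNA, 27 were kept. Slirp, whose protein binds mitochondrial mRNAs with that of Lrpprc, was at 5.20 ± 5.55 CPM in MII and 261 ± 194 CPM in GV aged controls, and Lrpprc at 0.847 ± 1.00 against 39.5 ± 3.23 CPM. Past 2-fold lower in MII oocytes were 6, 16 and 15 of the 27 in young controls, aged controls and NMN mice, and 12, 5 and 6 past 2-fold higher. The shares of all genes were 25.8, 35.9 and 46.7% for lower, and 36.3, 16.9 and 16.9% for higher. With age in MII oocytes 11 were past 2-fold lower and 1 higher, with a median of -0.87, against 22.6% lower and 8.45% higher over all genes, whose median was -0.27.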

How the data were processed

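Libraries of total RNA from single oocytes were made with the TruePrep DNA Library Prep Kit V2, per the labels' protocols. The submitters' processing notes name TopHat2 2.1.1, Cufflinks, Trim Galore 0.4.5 and FastQC 0.11.8, with GRCm38 and mm10 as builds. Each deposited table gives, per gene and library, an expected count, a TPM value and an effective length, per the file headers, with RSEM's column names. The tool that made them, how it shared reads between copies, and its use of strand are not given in the sources used here. Gene IDs matched GENCODE vM21 for 46488 of 47069 rows.

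Expected counts were rounded to whole numbers and scaled to CPM with TMM factors from the 16 libraries (edgeR 4.0.16, R 4.3.3), and genes were kept with filterByExpr at a minimum count of 10, which kept 12161 genes and 18 members (13 mRNAs, 2 rRNAs and 3 tRNAs). Shares and levels per kilobase used the expected counts and the library totals. log2 ratios compare group means after adding 1 CPM, and past 2-fold means a log2 ratio beyond 1 either way. As each library is 1 oocyte of unnamed animals, no p-value was computed. Binomial and Poisson intervals (95%, exact) cover counting error only. Ratio and list scripts were tested on simulated data. Nuclear copies were found with blastn 2.17.0 among annotated pseudogenes, at 95% identity over 200 bases. Sequences are from the GENCODE vM21 transcripts.

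The identical libraries were titled GV young untreated oocytes of batches 1 and 2, and were counted as GV young control 1 of batch 1. The members and gene lists were chosen with earlier results of these data known. In each comparison the 3 mRNAs with the largest and the 2 with the smallest absolute log2 ratio were named. tRNAs were named at 10 CPM in a group mean. Of each nuclear list, examples were taken from those with the largest ratio at 10 CPM or more without overlap. mt-Cytb and mt-Rnr2 in the comparisons, and tRNAs without a count, were named after their values were seen. Prorp, of the processing list, had no row in the tables. Alternatives were DESeq2 1.42.0 size factors, library totals, nuclear counts, no filter, a pseudocount of 10 CPM, TPM, copies added, the small library kept, each oocyte left out and single batches.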

Additional observations from a re-analysis of the deposited data

Results flagged for a closer look

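The library of GV aged control 2-2, left out for its 5009 counts, had 232 mitochondrial counts, of which 223 (96.0%) were mt-Rnr2. It had 4 counts of mt-Cytb and none of mt-Atp6 or mt-Rnr1, whereas mt-Rnr2 held at most 9.13% of mitochondrial counts in the 16 oocytes analysed. It came to notice as a signal in a library that no comparison uses. It held counts for 270 genes. The exact 95% binomial interval of its mitochondrial share of 4.63% was 4.07 to 5.25%, which covers counting error only.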

How the results depend on the processing

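No paired analysis was possible because each library is 1 oocyte, the labels name no animals and no result comes from a test. The results described here are the medians and 2-fold counts of the 13 mRNAs and the group shares, and the cause of each move was not tested. With the small GV library kept, the medians were -1.75 (age, GV), 1.17 (NMN, GV, with 10 mRNAs past 2-fold) and 2.14 (maturation, aged), and the GV aged control share was 3.40%. With deposited TPM, 5 mRNAs were past 2-fold with age in MII and 6 with NMN in MII, and shares were 4.22% in GV aged control, 5.70% in GV aged NMN and 19.2% in MII aged control. The GV aged control share was 2.58% over mRNAs alone and 3.25% with copies, an alternative chosen after seeing the data. With library totals no mRNA was past 2-fold with age in MII. Adding its copy reversed mt-Co3 with age in MII oocytes to 0.43. Within batch 1 the age median in GV was -0.98, and 7 mRNAs were past 2-fold with age in MII and 2 with NMN in GV. Within batch 2, where each group has 1 oocyte, the medians were 0.78 (age, MII), -0.59 (NMN, MII, reversed, 1 mRNA past 2-fold), -0.40 (maturation, young, or 0.00 with the identical pair placed in batch 2) and 0.36 (maturation, NMN, 5 past 2-fold), with 5 past 2-fold for age in MII and 2 for NMN in GV. Leaving out 1 oocyte gave medians of -1.49 to -0.73 (age, GV, 5 to 11 past 2-fold), -0.90 to 0.66 (age, MII, 3 to 6), 0.45 to 0.87 (NMN, GV, 0 to 5), 1.47 to 2.50 (NMN, MII, 10 to 13), -0.031 to 1.29 (maturation, young, 3 to 8), 1.02 to 1.79 (maturation, aged, 8 to 12) and 2.68 to 3.48 (maturation, NMN, 12 to 13). DESeq2 factors, nuclear counts, no filter and another pseudocount moved none of these medians by more than the spread between oocytes. At these depths a gene without a count in a library could not be told from one below 0.537 to 1.09 CPM.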
